A study of Mus musculus with 20 samples.

Results

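The genes described here are the DNA-binding subunits of the transcription factor NF-kappaB and proteins that restrain or modify it: Nfkb1, Nfkb2, Rel, Rela, Relb, Nfkbie, Nfkbib, Bcl3, Tnfaip3 and Ikbke. They were measured in microglia, the macrophages that populate brain tissue, sorted by flow cytometry from mice with and without amyloid pathology and with and without the receptor Trem2. A gene was included where the array annotation tied a probe set to that gene alone, and 9 of the 10 genes had such a probe set, 1 each, among 19751 genes in all. Nfkb1, which encodes the p105 precursor of p50, had none and was not analysed here. All 9 measured genes passed the filter on low values.

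The labels describe littermates, all 8.5 months old. The groups were 4 WT arrays, 4 arrays of Trem2-/- mice, 5 arrays of 5XFAD mice and 6 arrays of Trem2-/-5XFAD mice, which carry both alterations. The 5XFAD strain expresses mutant human amyloid precursor protein and presenilin transgenes from a promoter active in neurons, so the microglia respond to amyloid made by other cells. All animals were perfused with PBS, brains were dissociated with a commercial kit, and cells were sorted into lysis buffer, which the groups share. The sources used here give neither the sorting gate nor the sex of the animals, nor the part of Trem2 that was deleted. Nothing in the labels ties each array to a separate animal, so the p-values rest on variation from array to array, which may be partly technical. A further array, whose title and genotype label disagree, entered no comparison.

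NF-kappaB is a family of dimeric transcription factors that drive inflammatory and survival genes in macrophages. In resting cells IkB proteins hold the dimers in the cytoplasm, and signals from Toll-like, interleukin-1 and tumour necrosis factor receptors activate IkB kinases that mark IkB for destruction. Rela and Rel act mainly in this canonical branch, whereas Relb pairs with the p52 product of Nfkb2 in the alternative branch. Several of the inhibitors are themselves transcribed in response to NF-kappaB. The arrays measured transcripts only and say nothing of protein, nuclear entry or DNA binding, and in sorted bulk samples fewer cells of a type and less RNA per cell cannot be told apart.

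Levels are given as log2(intensity + 1). The 40th percentile of an array, used as the floor for testing, lay between 4.16 and 4.34 on this scale. Differences are log2 differences ± standard error from 1 limma model over the 19 assigned arrays, and a gene is called higher or lower at an adjusted p under 0.05 over the 12728 genes tested. Trem2 itself ranged from 11.14 to 11.80 in the groups that carry it and from 6.75 to 7.60 in the Trem2-/- groups. Microglial markers were high throughout, with a list mean of at least 10.79 on every array, but 8 of 11 tested were lower in 5XFAD than in WT. Border macrophage markers, 10 of 10 tested, had summed intensities of 1145 to 1908 in WT, 1267 to 2547 in Trem2-/-, 515 to 958 in 5XFAD and 1170 to 2048 in Trem2-/-5XFAD. Of these 10, 3 were lower in 5XFAD than in WT and 8 were higher in Trem2-/-5XFAD than in 5XFAD. Of 21 dissociation and immediate early genes, which share Junb and Ier3 with the target list used here, 3 were higher and 9 lower in 5XFAD than in WT. Of 6 astrocyte markers 2 were higher and 1 lower in that comparison, and 3 were lower in Trem2-/-5XFAD than in 5XFAD, while of 7 neutrophil markers 0 were called and the list mean ran from 4.31 to 4.82 in WT and from 4.59 to 6.51 elsewhere. Beside these counts, 8.23% of all genes tested were called higher and 6.77% lower in 5XFAD vs WT. In Trem2-/-5XFAD vs 5XFAD, 3.21% were called higher and 4.46% lower. The part of these lists in the results was not tested beyond the fits with border macrophage or neutrophil markers as a covariate. Xist was high in 3 of 4 WT, 3 of 4 Trem2-/-, 1 of 5 5XFAD and 0 of 6 Trem2-/-5XFAD arrays, so sex signal and genotype overlapped in part.

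The WT arrays fell apart for these genes, and every comparison with WT has to be read with that in view. WT 3 or WT 4 was the lowest of all 19 arrays for 9 of the 9 measured genes, against 12.2% of the 12728 genes tested. Both together were the lowest pair of arrays for 6 of the 9, against 2.37% of genes tested. The mean over the 9 genes was 8.67 in WT 1, 8.80 in WT 2, 8.14 in WT 3 and 8.28 in WT 4, while the other 15 arrays lay between 8.64 and 8.97. WT 1 and WT 2, together with 5XFAD 1 and 5XFAD 2, also carried salivary gland transcripts, whose list mean was 6.35, 6.62, 6.23 and 6.03 on these 4 arrays, against 3.04 in WT 3, 3.78 in WT 4 and at most 4.70 on any Trem2-/- array. The list means of dissociation and immediate early genes were 10.16, 10.29, 9.96 and 9.94 in WT 1 to 4, and those of microglial markers were 11.26, 11.38, 11.50 and 11.47. What set the WT arrays apart was not tested. The members' results against WT are therefore given with all WT arrays and without either pair where the pairs differ. Those of other genes are given where a call was lost or, in Trem2-/- vs WT, gained.

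**Figure D1:**
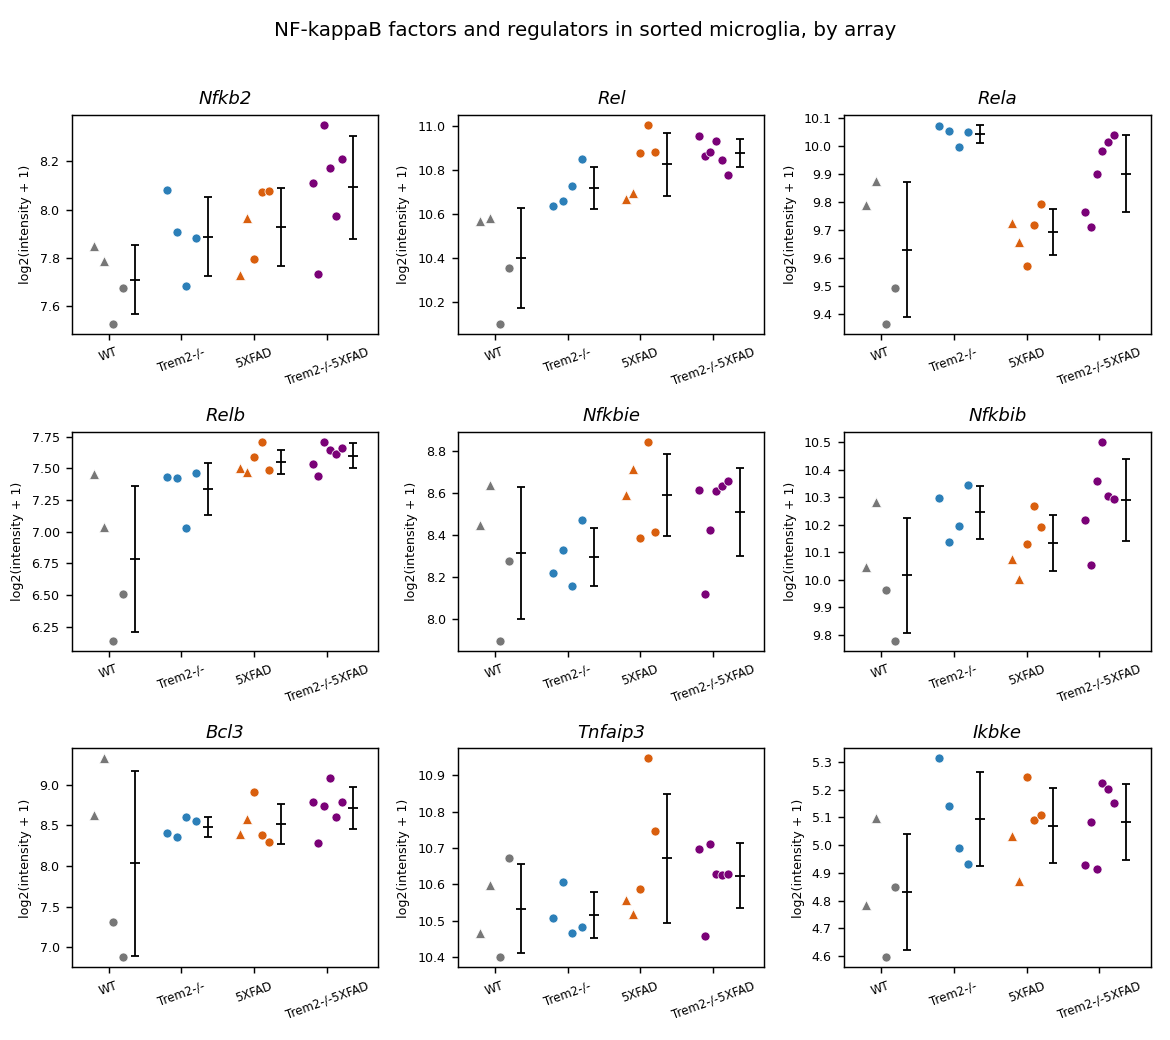
Level of each of the 9 measured genes as log2(intensity + 1), 1 point per array, by genotype group, with the mean ± SD of the group as a black bar; each panel has its own axis, which does not start at 0. Triangles mark WT 1, WT 2, 5XFAD 1 and 5XFAD 2, the arrays with salivary gland transcripts, and the 2 WT circles, WT 3 and WT 4, are the lowest arrays of the panel for 6 of the 9 genes.

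Promoter sequence is shown for 4 of the genes because several NF-kappaB subunits and inhibitors are known to be transcribed in response to NF-kappaB. RefSeq promoter windows of the GRCm38.p6 build, from 250 bases before the transcription start to 50 bases after it, were present for 8 of the 10 genes. Both strands were searched for the kappaB consensus, the DNA motif bound by NF-kappaB dimers, in windows of 300 bases. It was found for 5 of the 8 genes, namely Rel, Nfkb2, Nfkbie, Bcl3 and Tnfaip3, and for 9.55% of 27025 genes overall; the 8 genes have 11 windows between them, and 8.46% of all 32851 windows held a match. The windows of Rela, Nfkbib and Ikbke held no match. Sequences run 5′ to 3′ in the direction of the gene, and capitals mark the stretch that matched, with overlapping matches joined.
Rel (chr11:23770920-23771219, - strand): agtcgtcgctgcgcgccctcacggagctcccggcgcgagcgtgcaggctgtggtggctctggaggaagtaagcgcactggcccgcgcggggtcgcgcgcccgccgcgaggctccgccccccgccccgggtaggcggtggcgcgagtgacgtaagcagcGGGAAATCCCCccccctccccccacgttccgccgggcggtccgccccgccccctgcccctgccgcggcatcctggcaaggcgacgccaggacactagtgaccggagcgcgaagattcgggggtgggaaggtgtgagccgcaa
Nfkb2 (chr19:46304487-46304786, + strand): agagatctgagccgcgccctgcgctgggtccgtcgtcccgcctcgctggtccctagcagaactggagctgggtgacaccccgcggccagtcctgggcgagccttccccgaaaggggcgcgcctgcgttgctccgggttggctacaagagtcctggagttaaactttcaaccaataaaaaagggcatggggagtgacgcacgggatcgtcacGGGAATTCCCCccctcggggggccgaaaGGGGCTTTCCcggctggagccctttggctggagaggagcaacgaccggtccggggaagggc
Nfkbie (chr17:45555450-45555749, + strand): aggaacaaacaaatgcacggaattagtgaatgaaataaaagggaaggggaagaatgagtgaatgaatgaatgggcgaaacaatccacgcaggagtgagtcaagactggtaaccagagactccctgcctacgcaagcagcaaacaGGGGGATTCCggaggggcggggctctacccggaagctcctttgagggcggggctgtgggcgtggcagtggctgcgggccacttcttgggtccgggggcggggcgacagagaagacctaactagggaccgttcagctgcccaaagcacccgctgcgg
Bcl3 (chr7:19822706-19823005, - strand): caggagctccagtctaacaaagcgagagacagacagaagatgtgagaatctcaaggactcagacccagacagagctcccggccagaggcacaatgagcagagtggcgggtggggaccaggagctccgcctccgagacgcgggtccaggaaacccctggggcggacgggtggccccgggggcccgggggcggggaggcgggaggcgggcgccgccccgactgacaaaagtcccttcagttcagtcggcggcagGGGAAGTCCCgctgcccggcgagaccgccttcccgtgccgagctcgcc
Counting the first transcribed base as 1 and the base before it as -1, the capitals lie at -92 to -82 in Rel, at -39 to -29 and -11 to -2 in this Nfkb2 window, at -106 to -97 in Nfkbie and at 3 to 12 in Bcl3. Tnfaip3 had matches at -125 to -116 and at -12 to -3. A match describes the letters only, and no binding was measured. Whether the matches bear on the levels of these genes was not tested.

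Rel and Relb, subunits of the canonical and the alternative branch, were the members that rose in 5XFAD microglia relative to WT. Of the 9 genes measured, 2 were called higher and 0 lower, against 15.0% of all tested genes called in either direction and with 8.23% called higher and 6.77% lower. A count of 2 in 9 is close to that background and is not a result about the set. Rel and Relb were also the 2 of 9 genes whose 5XFAD and WT arrays did not overlap, against 13.4% of all genes tested. All 9 differences were above 0 with a median of 0.24, beside -0.02 over all genes tested, but they share the same 4 WT arrays.

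Rel encodes c-Rel, a subunit prominent in immune cells. It read 10.57, 10.58, 10.10 and 10.35 in WT 1 to 4, and 10.67, 10.69, 10.87, 11.003 and 10.88 in 5XFAD 1 to 5. It read 10.64, 10.66, 10.73 and 10.85 in Trem2-/- 1 to 4, and ran from 10.78 to 10.95 with a median of 10.87 in Trem2-/-5XFAD. Every array of the other groups lay above every WT array, and those 3 groups overlapped each other. The group means ordered as WT (10.40 ± 0.22 SD, n = 4), Trem2-/- (10.72 ± 0.09, n = 4), 5XFAD (10.82 ± 0.14, n = 5) and Trem2-/-5XFAD (10.87 ± 0.06, n = 6), with neighbours after the first step lying within their spread. The 5XFAD vs WT difference was 0.42 ± 0.11, a 1.34-fold higher level (95% interval 1.15 to 1.56), with a limma adjusted p of 0.0082.

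The size of the Rel difference depended on which WT arrays were kept. Without WT 3 and WT 4 it was 0.25 ± 0.11 with a limma adjusted p of 0.182, and without WT 1 and WT 2 it was 0.60 ± 0.12 with an adjusted p of 0.0019. Among the arrays with salivary gland transcripts, WT 1 and 2 against 5XFAD 1 and 2, it was 0.11 ± 0.13 with an adjusted p of 0.682. Among the others, WT 3 and 4 against 5XFAD 3 to 5, it was 0.69 ± 0.12 with an adjusted p of 0.0012. The call was also lost with sex signal as a covariate (0.31 ± 0.11, limma adjusted p 0.0728) and when only WT and 5XFAD entered the fit (adjusted p 0.0640). It held with border macrophage markers as a covariate, at 0.51 ± 0.13 and a limma adjusted p of 0.0159.

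Relb is the subunit of the alternative branch, and its promoter window was not among the sequences used here. It read 7.45, 7.04, 6.14 and 6.51 in WT 1 to 4, and 7.50, 7.47, 7.59, 7.71 and 7.49 in 5XFAD 1 to 5. Trem2-/- 1 to 4 read 7.43, 7.43, 7.03 and 7.47, and Trem2-/-5XFAD ran from 7.44 to 7.71 with a median of 7.63. The 5XFAD arrays lay between 7.47 and 7.71, while WT spanned 6.14 to 7.45 and its highest array fell just short of the lowest 5XFAD array. The mean was 6.78 ± 0.58 (SD, n = 4) in WT, 7.34 ± 0.20 (n = 4) in Trem2-/-, 7.55 ± 0.10 (n = 5) in 5XFAD and 7.60 ± 0.10 (n = 6) in Trem2-/-5XFAD. The 5XFAD vs WT difference was 0.77 ± 0.18, or 1.70-fold (95% interval 1.31 to 2.20), with a limma adjusted p of 0.0049.

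Relb, too, rested on WT 3 and WT 4. Without them the difference was 0.31 ± 0.14 with a limma adjusted p of 0.184, and without WT 1 and WT 2 it was 1.23 ± 0.14 with an adjusted p of 4.0e-06. Within the arrays with salivary gland transcripts it was 0.24 ± 0.18 (limma adjusted p 0.463), and within the others 1.27 ± 0.16 (adjusted p 3.2e-05). Relb stayed called with sex signal as a covariate, at 0.66 ± 0.20 and a limma adjusted p of 0.0338, and when only WT and 5XFAD entered the fit, with an adjusted p of 0.0446. Leaving out any 1 of the 19 arrays lost neither the Rel nor the Relb call, in 19 of 19 fits for each. Both calls also held with salivary gland transcripts as a block, a setting chosen after seeing the data. Rel then stood at 0.43 ± 0.11 (limma adjusted p 0.0094) and Relb at 0.80 ± 0.16 (adjusted p 0.0017).

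**Figure D2:**
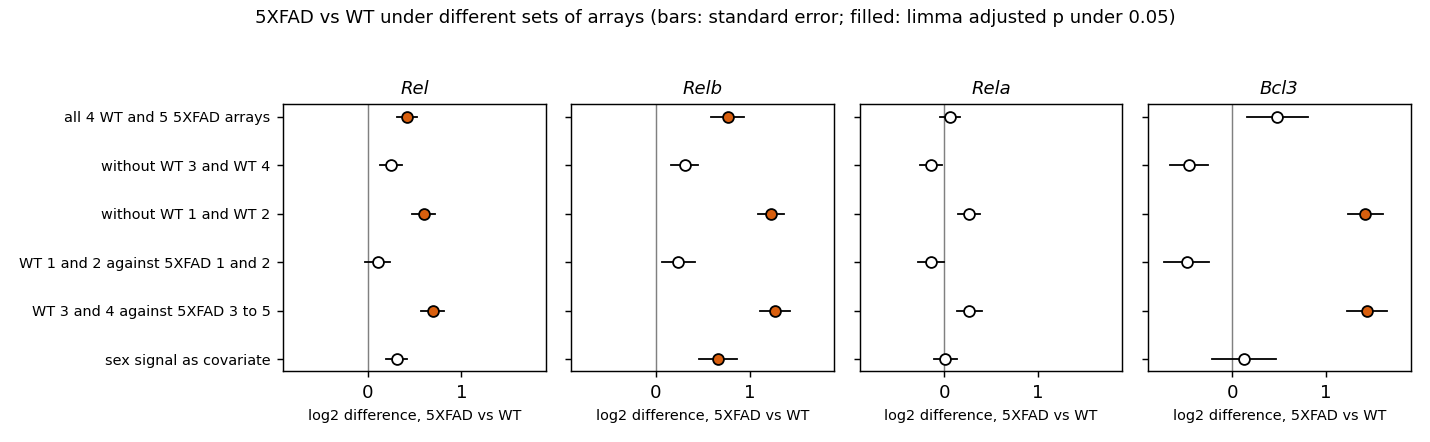
Log2 difference between 5XFAD and WT for Rel, Relb, Rela and Bcl3 under 6 choices of arrays or covariates (rows), with standard errors as bars; filled points had a limma adjusted p under 0.05. Bcl3 runs from -0.49 within WT 1 and 2 against 5XFAD 1 and 2 to 1.44 within WT 3 and 4 against 5XFAD 3 to 5, and Rel and Relb are called only in rows that keep WT 3 and WT 4, with Rel not called in the row with sex signal.

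Rela encodes p65, the most widely used transactivating subunit. It passed the test in no comparison, and its group mean was highest in Trem2-/- microglia. It read 9.79, 9.87, 9.36 and 9.49 in WT 1 to 4, and 10.07, 10.05, 9.996 and 10.05 in Trem2-/- 1 to 4. It read 9.72, 9.66, 9.57, 9.72 and 9.79 in 5XFAD 1 to 5, and ran from 9.71 to 10.04 with a median of 9.94 in Trem2-/-5XFAD. The 4 Trem2-/- arrays lay above all WT and all 5XFAD arrays and overlapped Trem2-/-5XFAD. Trem2-/- exceeded WT by 0.41 ± 0.11, or 1.33-fold, with a limma p of 0.0016 before adjustment and 0.119 after it. The 5XFAD vs WT difference was 0.06 ± 0.11 (95% interval -0.16 to 0.29), and it was -0.14 ± 0.12 without WT 3 and WT 4 and 0.27 ± 0.12 without WT 1 and WT 2. Trem2-/-5XFAD vs 5XFAD gave 0.21 ± 0.10, with an interval of 0.00 to 0.41 and a limma adjusted p of 0.239.

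Nfkb2 encodes p100, which serves as an inhibitor until it is processed to p52. It read 7.85, 7.79, 7.53 and 7.68 in WT 1 to 4, 8.08, 7.91, 7.68 and 7.88 in Trem2-/- 1 to 4, and 7.73, 7.97, 7.80, 8.07 and 8.08 in 5XFAD 1 to 5. Trem2-/-5XFAD ran from 7.73 to 8.35 with a median of 8.14. All 4 groups overlapped. Among the 4 comparisons made between groups, the largest of its differences was 0.22 ± 0.12 in 5XFAD vs WT. Its 95% interval was -0.04 to 0.48 and its limma adjusted p 0.277. Trem2-/-5XFAD was not compared with WT for any gene.

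The inhibitors gave no call in any comparison of all arrays. Nfkbie encodes IkB epsilon, an inhibitor that is itself induced by NF-kappaB. It read 8.45, 8.64, 7.90 and 8.28 in WT 1 to 4 and 8.59, 8.71, 8.39, 8.85 and 8.42 in 5XFAD 1 to 5, with the groups overlapping. The difference was 0.28 ± 0.15 (95% interval -0.03 to 0.58, limma adjusted p 0.231). It was 0.05 ± 0.16 without WT 3 and WT 4, and 0.51 ± 0.17 without WT 1 and WT 2, where limma called it with an adjusted p of 0.0499. It lay between 8.16 and 8.47 in Trem2-/-, and between 8.12 and 8.66 in Trem2-/-5XFAD. Nfkbib encodes IkB beta. Its group means were 10.02 ± 0.21 (SD, n = 4) in WT, 10.24 ± 0.09 (n = 4) in Trem2-/-, 10.13 ± 0.10 (n = 5) in 5XFAD and 10.29 ± 0.15 (n = 6) in Trem2-/-5XFAD. Among the 4 comparisons between groups, its largest difference was 0.23 ± 0.12 in Trem2-/- vs WT, with a limma adjusted p of 0.438.

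Bcl3 encodes an atypical IkB protein that sits in the nucleus and modifies transcription by p50 and p52 dimers. It had the widest range of the 9 genes over the arrays. WT 1 to 4 read 8.62, 9.32, 7.32 and 6.88, so WT held both the highest and the lowest of the 19 arrays. The ranges were 8.35 to 8.61 in Trem2-/-, 8.30 to 8.91 in 5XFAD and 8.29 to 9.08 in Trem2-/-5XFAD. With all arrays 5XFAD vs WT gave 0.48 ± 0.32 with a limma adjusted p of 0.376. Without WT 3 and WT 4 the difference turned to -0.46 ± 0.20 (limma adjusted p 0.167), and without WT 1 and WT 2 it was 1.42 ± 0.19 (adjusted p 3.3e-05). No direction for Bcl3 relative to WT can be read from these arrays. Between the groups that do not involve WT, its differences were 0.20 ± 0.29 (Trem2-/-5XFAD vs 5XFAD) and 0.23 ± 0.31 (Trem2-/-5XFAD vs Trem2-/-), neither called.

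Tnfaip3 and Ikbke act around the kinases. Tnfaip3 encodes A20, a ubiquitin-editing enzyme that terminates NF-kappaB signalling. Its group means lay close together, at 10.53 ± 0.12 (SD, n = 4) in WT, 10.52 ± 0.06 (n = 4) in Trem2-/-, 10.67 ± 0.18 (n = 5) in 5XFAD and 10.62 ± 0.09 (n = 6) in Trem2-/-5XFAD. The 5XFAD vs WT difference was 0.14 ± 0.10, and its 95% interval of -0.07 to 0.35 leaves room for a change of up to 1.27-fold. Ikbke encodes an IkB kinase-related kinase of the interferon and NF-kappaB pathways. It lay near the floor of the test, between 4.60 and 5.31 on all 19 arrays, where folds are understated. Among the 4 comparisons between groups, its largest difference was 0.26 ± 0.12 in Trem2-/- vs WT, with a limma adjusted p of 0.384. Nfkb2, Nfkbib, Tnfaip3 and Ikbke were called in neither comparison with WT when either WT pair was left out. Their 5XFAD vs WT differences ran from -0.03 to 0.14 without WT 3 and WT 4, and from 0.14 to 0.35 without WT 1 and WT 2.

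**Figure D3:**
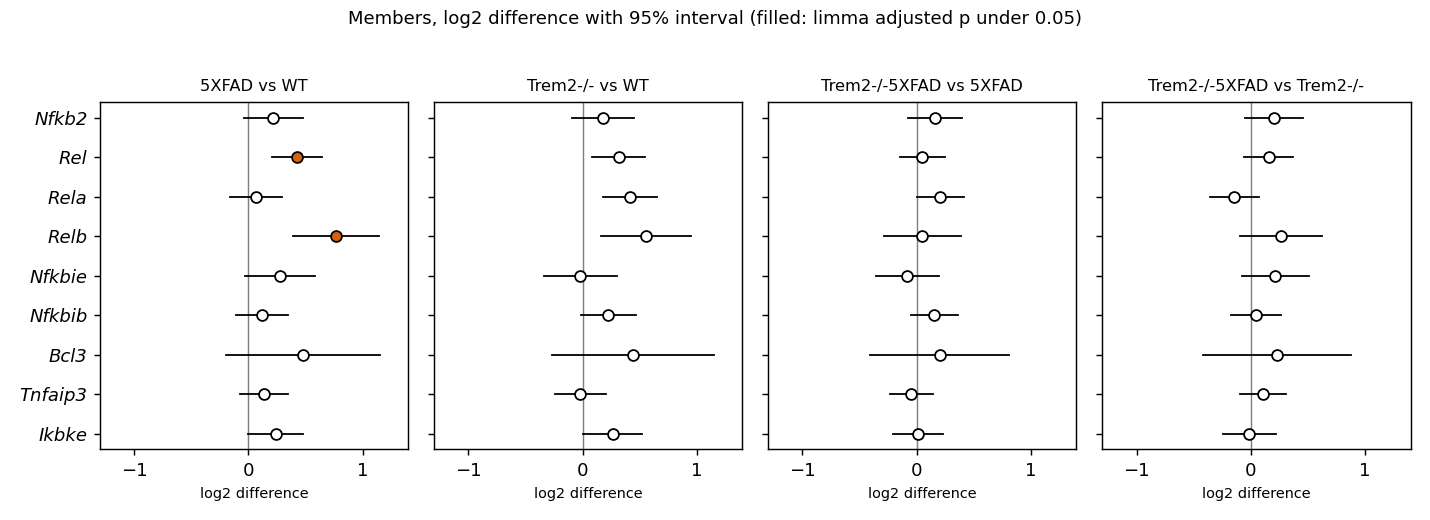
Log2 difference with its 95% interval for each of the 9 measured genes in 4 comparisons, named above the panels; filled points had a limma adjusted p under 0.05. Rel and Relb in 5XFAD vs WT are the filled points, and in Trem2-/-5XFAD vs 5XFAD the interval of Rela starts at 0.00 while those of the other 8 genes include 0.

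Trem2-/- vs WT asks what loss of Trem2 does without amyloid, and it shares its WT arrays with 5XFAD vs WT. In Trem2-/- vs WT, 0 of the 9 genes were called by limma, against 0.613% of all genes tested. Unadjusted limma p-values were under 0.05 for 4 of them, Rela, Relb, Rel and Ikbke, all higher in Trem2-/-, against 12.4% of all genes tested. Relb differed by 0.55 ± 0.19 (limma adjusted p 0.214) and Rel by 0.32 ± 0.11 (adjusted p 0.231). The Trem2-/- and WT arrays did not overlap for Rel and Rela, and overlapped for the other 7 genes, while 5.79% of all genes tested had no overlap. Without WT 1 and WT 2, limma called 4 of the 9, all higher, against 2.03% of genes tested in either direction (199 genes higher and 59 lower). These were Relb (1.01 ± 0.14, adjusted p 3.5e-04), Bcl3 (1.38 ± 0.20, adjusted p 3.8e-04), Rela (0.62 ± 0.12, adjusted p 0.0068) and Rel (0.49 ± 0.12, adjusted p 0.046). Without WT 3 and WT 4, 0 of the 9 were called, against 0.589% of genes tested, and Relb differed by 0.09 ± 0.15.

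In the presence of the 5XFAD transgenes, no difference with loss of Trem2 was called for these transcripts. In Trem2-/-5XFAD vs 5XFAD, which involves no WT array, limma called 0 of 9 genes, against 7.68% of all genes tested (3.21% higher, 4.46% lower), and 1 of 9, Rela, had an unadjusted p under 0.05, against 19.9% of genes. The median of the 9 differences was 0.05, beside 0.04 over all genes. Rel differed by 0.05 ± 0.10 (95% interval -0.15 to 0.25) and Relb by 0.05 ± 0.16 (-0.29 to 0.39). The Relb interval still allows a 1.31-fold increase. The groups overlapped for all 9 genes, while they did not for 7.14% of genes tested.

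Among Trem2-/- animals, the differences with the transgenes ran from -0.14 ± 0.10 for Rela to 0.26 ± 0.17 for Relb. In Trem2-/-5XFAD vs Trem2-/-, limma called 0 of 9 genes, against 2.18% of all genes (1.63% higher), and 0 of 9 had an unadjusted p under 0.05, against 14.3%. Rel differed by 0.16 ± 0.10, with a limma adjusted p of 0.516. The interaction subtracts the 5XFAD difference seen with Trem2 present from the one seen with Trem2 absent, and it was below 0 for all 9 genes, with a median of -0.21 beside 0.03 over all genes. Limma called 0 of 9 interactions, against 2.60% of all genes (1.58% lower), and 0 of 9 had an unadjusted p under 0.05, against 14.2%, with Relb at -0.50 ± 0.25 and an adjusted p of 0.371. The interaction uses the same WT arrays. Without WT 3 and WT 4, Relb came to -0.04 ± 0.18 and Bcl3 to 0.69 ± 0.26. Without WT 1 and WT 2, limma called 2 of 9, against 3.43% of genes, Relb (-0.96 ± 0.17, adjusted p 0.0028) and Bcl3 (-1.18 ± 0.24, adjusted p 0.0067).

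The 9 transcripts tended to vary together from array to array. Over the 19 arrays the 36 pairs of genes had Pearson correlations between 0.03 and 0.89, with a median of 0.57. The highest was that of Rel with Relb and the lowest that of Rela with Tnfaip3. After subtracting each group's mean, 35 of 36 pairs were still positive, with a median of 0.52 and a highest value of 0.73 for Rela with Relb. The pairs share the same arrays, input and scaling, and WT 3 and WT 4 enter all of them. Subtracting the group means leaves the split among the WT arrays in place. Pairs of other genes were not summarized in this way, so whether this is particular to the 9 genes was not tested. Among all other tested genes, those most alike to Rel over the 19 arrays were Arih2 (r = 0.92), Sptan1 (0.92) and Casp4 (0.92), and those most alike to Relb were Ifrd1 (0.91), Rhbdf2 (0.91) and Txnrd1 (0.91). After subtracting each group's mean, these values were 0.75, 0.74 and 0.75 for Rel, and 0.82, 0.83 and 0.77 for Relb. The genes were picked for the highest values, and the split among the WT arrays enters these correlations too.

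In the reference gene order, Relb and Bcl3 both lie on chromosome 7 and flank Apoe, with 5 protein-coding genes between Relb and Apoe and 4 between Apoe and Bcl3. Apoe, the lipid carrier raised in plaque-associated microglia, differed by 1.55 ± 0.14 in 5XFAD vs WT, and its WT arrays read 11.60, 11.46, 11.21 and 11.09. Nfkbie lies on chromosome 17 with Trem2, with 73 protein-coding genes between them, and its Trem2-/- vs WT difference was -0.02 ± 0.15. That difference was -0.25 ± 0.17 without WT 3 and WT 4 and 0.21 ± 0.17 without WT 1 and WT 2, neither called. Rela and Nfkb2 share chromosome 19, Rel lies on chromosome 11, Tnfaip3 on chromosome 10 and Ikbke on chromosome 1.

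Around these genes, the rest of the pathway was read from lists of textbook components, chosen with earlier results of these data known. Of 4 other IkB proteins tested, 1 rose in 5XFAD vs WT, Nfkbiz (0.33 ± 0.09, limma adjusted p 0.0172), an inducible nuclear IkB. The other 3, Nfkbia, Nfkbid and Nfkbil1, had differences below 0 that were not called. The list median was -0.20, beside -0.02 over all genes tested. Of 12 kinases and their partners, 3 rose and 1 fell. Irak3, a kinase-dead brake on Toll-like receptor signalling, rose by 1.09 ± 0.21. Map3k8, the kinase Tpl2, rose by 0.61 ± 0.17 and Tab3 by 0.51 ± 0.14, while Tab1 fell by 0.67 ± 0.16; Tab1 and Tab3 are partners of the kinase Tak1. Of 29 adaptors and ubiquitin enzymes, 3 rose and 1 fell. Malt1, a paracaspase that relays receptor signals to NF-kappaB, rose by 1.02 ± 0.12, Zc3h12a, an RNase that degrades cytokine transcripts, by 0.74 ± 0.15, and Tnip2, a partner of A20, by 0.44 ± 0.11, while Traf5 fell by 0.69 ± 0.19. The shares called, 4 of 12 and 4 of 29, stand beside 15.0% of all genes tested. Without WT 3 and WT 4, the limma calls of Nfkbiz (0.24, adjusted p 0.181), Map3k8 (0.18, 0.406), Tab3 (0.35, 0.223), Zc3h12a (0.48, 0.0536) and Tnip2 (0.39, 0.0816) were lost. Those of Map3k8, Tab3 and Nfkbiz were also lost with sex signal as a covariate, as was that of Traf5, which was not called without WT 1 and WT 2 either. With border macrophage markers as a covariate, limma no longer called Nfkbiz (adjusted p 0.0509), Tab3 (0.109) or Traf5 (0.233).

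Receptors and ligands that feed the pathway moved in both directions. Of 18 tested, 4 rose and 2 fell in 5XFAD vs WT, against 15.0% of all genes in either direction, and the list median was -0.10 beside -0.02 over all genes. Tlr2, a receptor for bacterial lipopeptides, averaged 9.74 ± 0.21 (SD, n = 4) in WT and 11.04 ± 0.05 (n = 5) in 5XFAD, a rise of 1.30 ± 0.10. Cd14, the co-receptor that hands lipopolysaccharide to Tlr4, rose by 0.84 ± 0.12 and Il1b, an inflammatory cytokine, by 2.54 ± 0.34, which came to 1.57 ± 0.24 without WT 3 and WT 4. Tlr4 itself fell by 1.04 ± 0.16 and the tumour necrosis factor receptor Tnfrsf1b by 0.56 ± 0.11. In Trem2-/-5XFAD vs 5XFAD, 2 of the 18 fell, against 4.46% of all genes, Tlr2 by 0.67 ± 0.09 and Cd14 by 0.51 ± 0.11. Tlr2 stayed 0.66 ± 0.09 above Trem2-/- in Trem2-/-5XFAD, and its interaction of -0.64 ± 0.13 had a limma adjusted p of 0.0097, which became 0.0850 without WT 3 and WT 4.

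Among genes that NF-kappaB is known to induce, the prostaglandin enzyme Ptgs2 and the cytokines Csf1 and Il12b rose most clearly. Of 34 textbook targets tested, 11 rose and 4 fell in 5XFAD vs WT, with a list median of 0.34 beside -0.02 over all genes. Of all genes tested, 15.0% were called, 8.23% higher and 6.77% lower. The list count was 8 and 4 without WT 3 and WT 4, where 11.7% of all genes were called in either direction. It was 14 and 2 without WT 1 and WT 2, where 13.4% were called. The list was chosen with earlier results of these data known, so an excess over all genes is not a result about the list. Ptgs2, which encodes the prostaglandin-forming enzyme COX-2, averaged 7.15 ± 0.45 (SD, n = 4) in WT, 7.44 ± 0.22 (n = 4) in Trem2-/-, 10.27 ± 0.14 (n = 5) in 5XFAD and 8.35 ± 0.20 (n = 6) in Trem2-/-5XFAD. Its rise of 3.12 ± 0.17 in 5XFAD vs WT had a limma adjusted p of 2.26e-11. Csf1, the growth factor that sustains microglia, rose by 2.54 ± 0.13 and Il12b, the p40 subunit of interleukins 12 and 23, by 2.45 ± 0.18. The chemokine Ccl2 fell by 1.02 ± 0.16, the cyclin Ccnd1 by 0.58 ± 0.12 and Junb, an AP-1 subunit, by 0.41 ± 0.11, a call that was lost without WT 1 and WT 2 and with border macrophage markers as a covariate (limma adjusted p 0.113).

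Without Trem2, several of these target genes were lower in the presence of the transgenes. In Trem2-/-5XFAD vs 5XFAD, 7 of the 34 targets fell and 1 rose, against 4.46% and 3.21% of all genes. The choice of the list with earlier results of these data known limits these counts too. Ptgs2 fell by 1.93 ± 0.15, Il12b by 1.82 ± 0.17 and Csf1 by 1.59 ± 0.12, and Ccl2 was the gene that rose, by 0.73 ± 0.14. The interaction was called for 4 of 34, all below 0, against 1.58% of all genes below 0, among them Ptgs2 (-2.22 ± 0.23), Il12b (-2.14 ± 0.26) and Cxcl2 (-2.07 ± 0.44), a neutrophil chemokine. That of Cxcl2 had a limma adjusted p of 0.0121, and of 0.0652 without WT 3 and WT 4, at -1.29. Malt1 was the adaptor that fell, by 0.97 ± 0.11, with an interaction of -0.94 ± 0.17, and Tab3 had an interaction of -0.84 ± 0.20 that was not called without WT 3 and WT 4 (limma adjusted p 0.133). In Trem2-/- vs WT, where 0.613% of all genes were called, 1 of 34 targets was called, Csf1, which fell by 0.94 ± 0.14, and 1 of 12 kinases, Map3k8, which rose by 0.77 ± 0.17 with a limma adjusted p of 0.0478 and was not called without WT 3 and WT 4 (adjusted p 0.256) or with border macrophage markers as a covariate (adjusted p 0.359). The Csf1 call was lost when only WT and Trem2-/- entered the fit. Without WT 1 and WT 2, limma called further named genes in Trem2-/- vs WT, all higher, against 2.03% of genes tested. These were Il1b (1.56 ± 0.23, limma adjusted p 5.2e-04), Cxcl2 (1.63 ± 0.26, 0.0014), Zc3h12a (0.86 ± 0.15, 0.0033) and Tab3 (0.73 ± 0.17, 0.032). Without WT 3 and WT 4 none of them was called, and Il1b stood at -0.39 ± 0.25. In Trem2-/-5XFAD vs Trem2-/-, 3 of 34 targets rose, against 1.63% of all genes, Csf1 by 1.89 ± 0.13, Cxcl10 by 1.35 ± 0.22 and Ptgs2 by 0.90 ± 0.16, and Cebpb fell by 0.59 ± 0.13. The calls of Ptgs2 and Cebpb there were lost with sex signal as a covariate, and that of Cebpb also without Trem2-/- 2 or Trem2-/- 3.

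**Figure D4:**
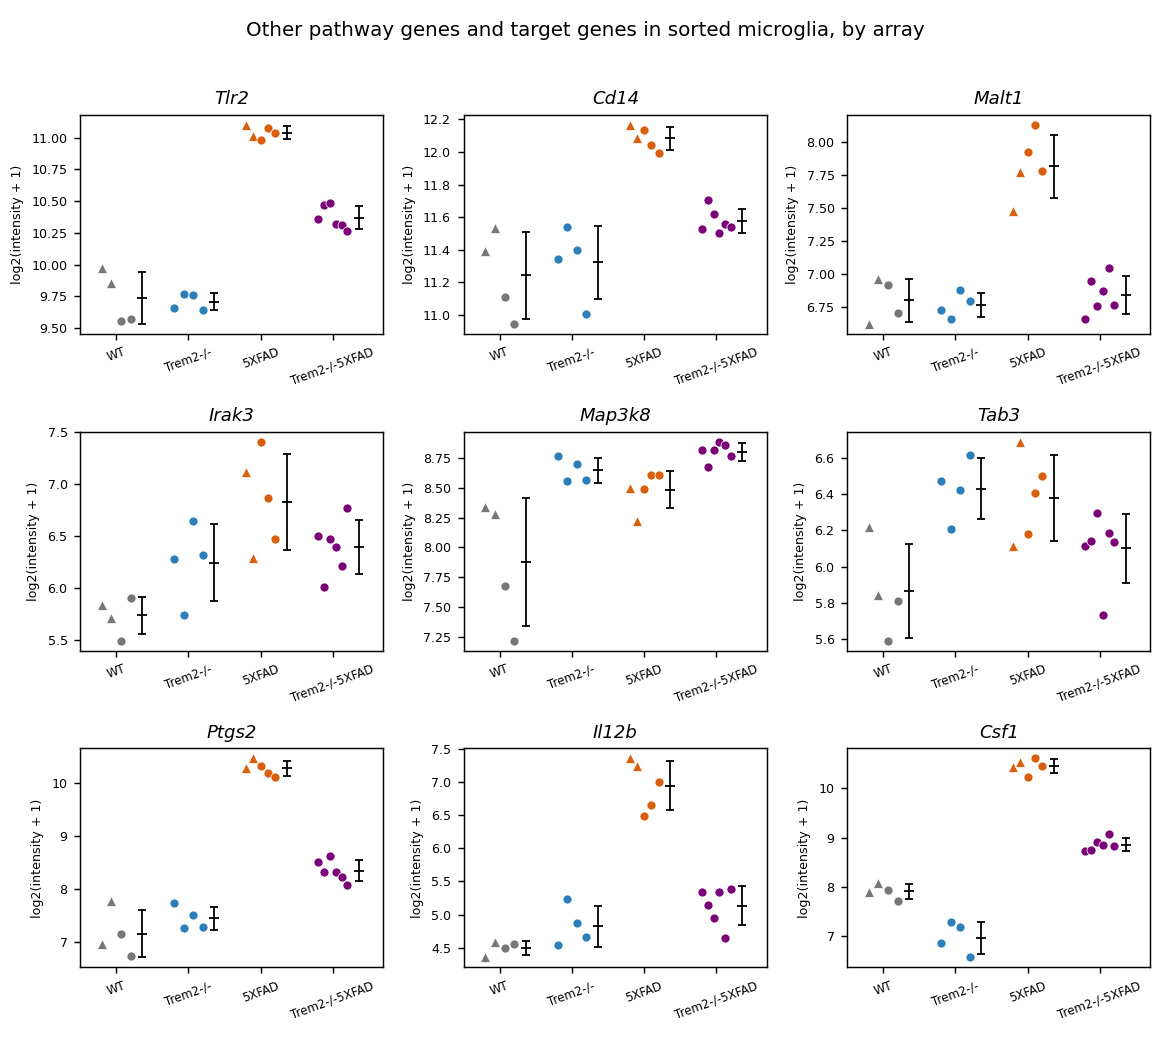
Level of 9 further pathway and target genes as log2(intensity + 1), 1 point per array, with the mean ± SD of each group as a black bar; axes differ between panels and do not start at 0, and triangles mark WT 1, WT 2, 5XFAD 1 and 5XFAD 2. In Tlr2, Cd14, Malt1, Ptgs2, Il12b and Csf1 all 5XFAD arrays lie above all Trem2-/-5XFAD arrays. The 9 genes shown were chosen among those with the smallest p-values of their lists.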

How the data were processed

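The deposited table holds linear intensity values of 24679 probe sets on 20 one-colour arrays, from 2 ng of RNA per the labels' protocols. No source used here gives the tool or normalization the authors used; column medians ran from 25.7 to 28.6. The annotation tied 21354 probe sets to 1 gene, 1275 to several, and 2050 were unnamed. Where a gene had several probe sets (893 genes), that with the highest mean log2 value stood for it; each of the 9 NF-kappaB genes has 1.

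From the deposited intensities, log2(intensity + 1) was computed here. A gene was tested if it exceeded the array's 40th percentile on at least 4 assigned arrays (12728 genes). Limma 3.58.1 in R 4.3.3 fitted 1 model to 19 arrays (residual degrees of freedom 15, prior 5.29), with Benjamini-Hochberg adjustment over all tested genes. The number of arrays limits precision. The code was tested on simulated data.

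The genes and pathway lists were chosen with earlier results of these data known. Named pathway genes are the called genes with the smallest p, at most 3 per list, direction and comparison, for Rel and Relb the 3 most correlated genes, and Trem2 and Apoe. Lists overlap in Nfkbia, Birc3 and Traf1. Chuk, Ripk1, Ripk2, Irak4, Traf3, Il1r1 and C3 were not analysed here. Alternatives comprised 19 settings, of which 4 that split the WT arrays or used salivary gland transcripts as a block were chosen after seeing the data, prompted also by the low values of WT 3 and WT 4, and leaving out each of 19 arrays. A shorter form of the kappaB motif was also searched and is not reported.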

Additional observations from a re-analysis of the deposited data

Results flagged for a closer look

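In 36 sets of arrays (9 genes in 4 groups), 2 single arrays stood apart by Dixon's ratio, which chance would do in about 1 in 20 sets. Relb in Trem2-/- 3 read 7.03, below the next array at 7.43. Tnfaip3 in Trem2-/-5XFAD 2 read 10.46, below the next array at 10.62. WT 3 and WT 4, which differ as a pair, are not picked out by a ratio for single arrays.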

How the results depend on the processing

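Counts of the 9 genes called are given with the share of all genes tested, called in either direction, in brackets. In 5XFAD vs WT the count was 2 with all arrays (15.0%). It was 1 with only the groups of the contrast in the fit (11%) and 1 with sex signal as a covariate (13.1%). It was 0 without WT 3 and WT 4 (11.7%) and 0 for WT 1 and 2 against 5XFAD 1 and 2 (8.81%). Rel, Relb, Bcl3 and Nfkbie made it 4 without WT 1 and WT 2 (13.4%). Rel, Relb and Bcl3 made it 3 without WT 1, WT 2, 5XFAD 1 and 5XFAD 2 (11.3%). In Trem2-/- vs WT it was 0 with all arrays (0.613%), 4 without WT 1 and WT 2 (2.03%), and 4 without these and 5XFAD 1 and 2 (2.13%). The interaction went from 0 (2.60%) to 2 under the same 2 settings (3.43% and 2.83%). Leaving out 1 array at a time gave 2 to 3 calls in 5XFAD vs WT, with Bcl3 called without WT 2, and 0 to 1 in Trem2-/- vs WT, with Relb called without WT 1 and Rela without WT 2. The remaining comparisons gave 0 under every alternative run. No pseudocount, a pseudocount of 16, median centring, quantile normalization, no filter, averaged probe sets, a trended prior, array weights, and neutrophil or border macrophage markers as covariates kept the 2 calls. So did salivary gland transcripts as a block. Over all alternatives, 1574 of 1665 values of the 9 genes kept direction and call, 6 lost and 18 gained a call, and 67 changed sign, none of them called in either setting. Bcl3 changed sign without WT 3 and WT 4, to -0.46 in 5XFAD vs WT, -0.49 in Trem2-/- vs WT and 0.69 in the interaction. For the other named genes these numbers were 4198 of 4440, 82, 86 and 74. With the replicate number as a block, Rel stood at 0.42 (limma adjusted p 0.0261) and Relb at 0.77 (adjusted p 0.0132), and no call among the 9 genes changed, while 4 calls of other named genes were lost and 1 was gained; deviations of same-numbered arrays had a median correlation of 0.01 over 25 pairs, from -0.10 to 0.17. Between WT and 5XFAD, whose arrays 1 and 2 share salivary gland transcripts, the 4 pairs ran from 0.09 to 0.17. Differently numbered arrays of different groups had a median of -0.01 over 109 pairs, from -0.17 to 0.18. Since not every pair exceeded 0.1, the numbers were not taken to pair the arrays. Whether same-numbered WT and 5XFAD arrays were handled together was not tested. The causes of these changes were not tested. Ikbke, near the floor of the test, is the gene most limited by low signal.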

Other observations

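The array whose title names WT and whose genotype label names Trem2-/- read 11.08 for Trem2. On it Nfkb2 read 7.95, Rel 10.65, Rela 9.96, Relb 7.42, Nfkbie 8.33, Nfkbib 10.37, Tnfaip3 10.70, Ikbke 4.71 and Bcl3 7.88.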
